A study of Mus musculus with 24 samples.

Results

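A list of 40 imprinted genes, each matched by symbol to a single mouse gene record, was followed out of 34614 protein-coding and long non-coding RNA (lncRNA) genes. For each of them the share of DNA lying inside called regions of 5 histone marks was measured over the gene record and 10 kb on either side, called the window below. The cells were NOS1+ N1E115 cells, a mouse neuroblastoma line grown in culture, kept for 3 days at 20% or at 4% oxygen. Chromatin immunoprecipitation sequencing (ChIP-seq) had 2 libraries per mark and oxygen level, called replicate 1 and replicate 2, and the 4 input samples had no file used here. All groups share the cell line and the NOS1+ state, and no label names separate cultures for the 2 libraries, so p-values may measure technical spread only.

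Imprinted genes are expressed mainly from the copy inherited from one parent, under control regions whose DNA methylation is set in the germ line and which often govern a whole cluster through a non-coding RNA or an insulator. The methylated copy of such a region is compacted, while the unmethylated copy can carry H3K4me3 (trimethylation of histone H3 at lysine 4), the mark of active starts. H3K27ac marks active starts and enhancers, H3K4me1 marks enhancers, H3K36me3 follows elongating polymerase through gene bodies, and H3K27me3 is laid down by Polycomb at silent genes. The deposited lists hold no allele information, so an active and a Polycomb mark on a gene may lie on the same copy or on different copies, and these cannot be told apart.

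The starts shown first carry contrasts described below, with CpG dinucleotides, the sites of DNA methylation, in capitals. Each is the 250 bases upstream of an annotated start in RefSeq (GRCm38.p6), read 5′ to 3′ on the gene's strand. Airn (chr17:12741061-12741310, plus strand) is the antisense RNA gene that starts inside Igf2r and runs beyond it. Igf2r (chr17:12769707-12769956, minus strand) encodes the receptor that clears IGF2. Peg3 (chr7:6730420-6730669, minus strand) and Usp29 (chr7:6730333-6730582, plus strand) start back to back. Grb10 (chr11:12037421-12037670, minus strand) has the most CpGs of the members' starts, and Zrsr1 (chr11:22971755-22972004, plus strand) lies within Commd1.
Airn: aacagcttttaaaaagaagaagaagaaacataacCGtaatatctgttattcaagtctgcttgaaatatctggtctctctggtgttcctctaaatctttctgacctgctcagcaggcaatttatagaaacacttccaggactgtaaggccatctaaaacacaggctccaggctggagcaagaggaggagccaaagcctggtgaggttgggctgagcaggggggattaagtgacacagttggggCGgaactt
Igf2r: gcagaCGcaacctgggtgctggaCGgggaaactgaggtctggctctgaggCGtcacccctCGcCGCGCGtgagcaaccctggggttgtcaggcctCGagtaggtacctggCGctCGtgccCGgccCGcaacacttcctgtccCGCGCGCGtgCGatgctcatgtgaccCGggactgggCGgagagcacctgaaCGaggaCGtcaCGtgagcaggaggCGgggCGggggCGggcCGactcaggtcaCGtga
Peg3: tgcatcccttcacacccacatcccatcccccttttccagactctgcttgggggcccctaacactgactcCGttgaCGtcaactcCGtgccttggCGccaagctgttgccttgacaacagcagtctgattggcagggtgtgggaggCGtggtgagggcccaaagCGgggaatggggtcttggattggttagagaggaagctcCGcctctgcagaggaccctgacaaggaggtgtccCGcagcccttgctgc
Usp29: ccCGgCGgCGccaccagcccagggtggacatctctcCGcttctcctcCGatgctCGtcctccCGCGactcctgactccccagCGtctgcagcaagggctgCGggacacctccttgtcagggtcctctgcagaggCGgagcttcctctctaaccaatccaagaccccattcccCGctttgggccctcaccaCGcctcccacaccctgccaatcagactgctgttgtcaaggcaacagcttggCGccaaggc
Grb10: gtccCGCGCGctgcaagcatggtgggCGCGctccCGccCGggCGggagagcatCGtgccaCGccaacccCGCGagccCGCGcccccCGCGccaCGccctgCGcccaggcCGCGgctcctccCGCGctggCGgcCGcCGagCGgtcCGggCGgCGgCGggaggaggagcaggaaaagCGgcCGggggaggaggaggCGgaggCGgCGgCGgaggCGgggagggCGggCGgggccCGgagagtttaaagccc
Zrsr1: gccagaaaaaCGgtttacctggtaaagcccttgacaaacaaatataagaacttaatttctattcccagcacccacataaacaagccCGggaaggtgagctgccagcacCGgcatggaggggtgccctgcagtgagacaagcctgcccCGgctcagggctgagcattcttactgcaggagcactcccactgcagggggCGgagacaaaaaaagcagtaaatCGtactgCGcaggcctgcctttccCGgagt
H3K4me3 lay within 1000 bp of the Airn, Peg3 and Usp29 starts in 4 of 4 libraries and in no library at the Igf2r, Grb10 and Zrsr1 starts. CpG number did not order these starts by the mark: Airn had 2 CpGs and Igf2r 27, Peg3 had 8 and Usp29 14, Grb10 had 40 and Zrsr1 8.

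The promoter table held 32 of the 40 genes, with 49 starts. H3K4me3 lay at 20 of these starts in all 4 libraries, with a median of 14 CpGs in the upstream bases, and at 26 in no library, with a median of 9. Over all 32851 starts the medians were 16 and 3. The letters TGCCGC, the core bound by the imprint-keeping factor ZFP57 when methylated, stood on either strand in 8 of the 49 member starts (16.3%) and in 8.68% of all starts. Of the 6 starts printed above, none holds these letters. ACGTG, a core of hypoxia response elements, stood in 11 member starts (22.4%) against 16.6% of all, and GCGTG in 23 (46.9%) against 28.2%. At starts with H3K4me3 in all 4 libraries, TGCCGC stood in 15% of member and 14.85% of all starts. There ACGTG stood in 20% and 21.85%, and GCGTG in 55% and 45.62%. At starts with H3K4me3 in no library the shares were 15.38% (4 of 26) and 4.14%, 23.08% (6 of 26) and 12.74%, and 38.46% (10 of 26) and 15.41%. Each of these strings of letters contains a CpG, and in this group the median CpG number was 9 for members and 3 for all starts. The part of CpG number in these shares was not tested. These are letter matches only. Starts of a gene can share bases, as those of Peg3 and Usp29 do, and the groups were not tested against each other.

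The cell label was checked against markers. All 9 noradrenergic neuroblastoma genes reported (Phox2a, Hand2, Gata2, Gata3, Isl1, Th, Dbh, Chga and Mycn) had H3K4me3 and H3K27ac at their start in all 4 libraries, and 8 had H3K36me3. Of 18 genes of other cell types, H3K4me3 lay in all 4 libraries at 1 of 5 glial and 1 of 3 mesenchymal genes, and at none of 3 immune, 3 endothelial and 4 liver and muscle genes. The lists held 26489 to 126503 peaks for H3K4me3, H3K27ac and H3K4me1 and 17535 to 34471 islands for H3K36me3 and H3K27me3. Replicate 2 libraries shared 1 flow cell. In replicate 1, the 4% libraries other than H3K4me1 came from another flow cell than the 20% libraries, so oxygen and flow cell cannot be told apart there, and the replicate 2 values are the comparison within a flow cell. A region that is not in a list was not called, which does not show that the mark is absent.

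Many imprinted genes had an active start in every library. H3K4me3, counted as present when it covered at least 200 bp within 1000 bp of a start, was found in all 4 libraries at 20 of 40 members (50%), against 41.4% of all genes and 53.5% of protein-coding genes. H3K27ac at the start was in all 4 libraries at 19 members (47.5%), against 34.2% of all genes and 43.0% of protein-coding genes. H3K36me3 covered at least 25% of the gene record in all 4 libraries at 13 members (32.5%), against 27.6% and 38.3%. H3K4me1, within 10 kb of a start, was in all 4 at 16 members (40%), against 31.5% and 32.3%. H3K27me3, at the start or over at least 25% of the record, was in all 4 at 3 members (7.5%), against 16.2% and 13.7%. No difference in share between members and all genes was tested. H3K4me3 and H3K36me3 were together in all 4 libraries at 11 members (27.5%), against 24% of all genes and 36.3% of protein-coding genes. These were Peg3, Ube3a, Mest, Gnas, Peg10, Sgce, Impact, Inpp5f, H13, Nap1l5 and Zdbf2.

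**Figure D1:**
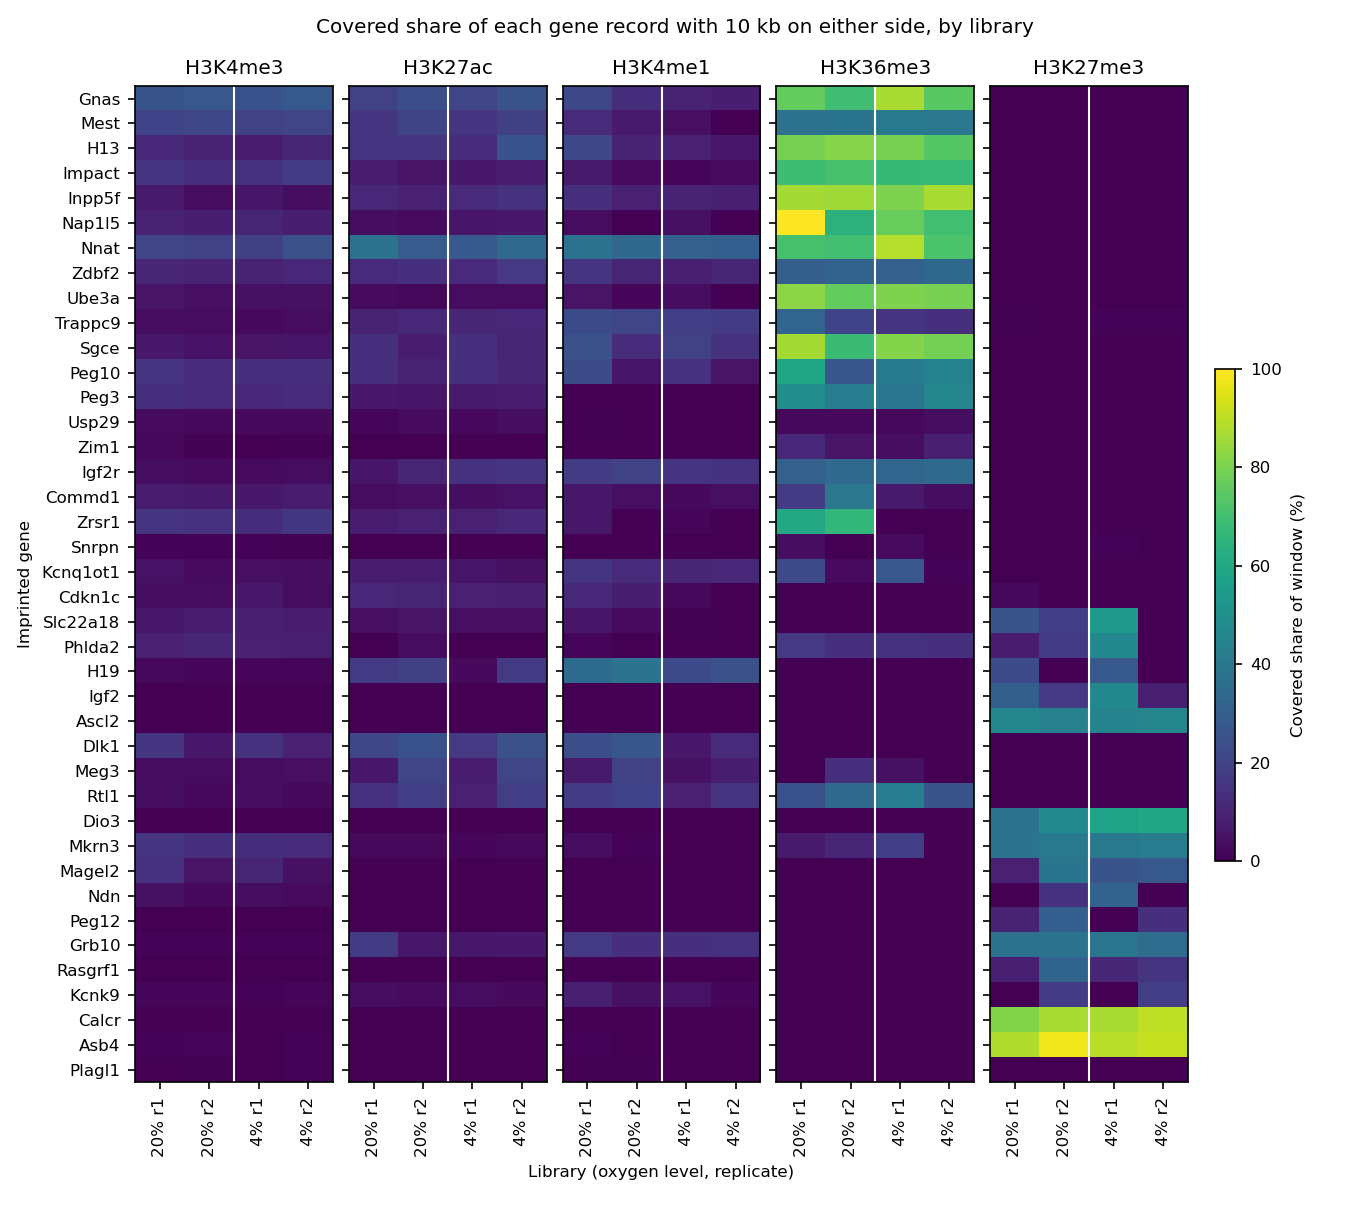
Covered share of each member's window in percent (color, from 0 to 100) for 5 marks (panels) and 4 libraries each (columns, with the white line between 20% and 4% oxygen; r1 and r2 are the replicates), with 1 row per gene. H3K36me3 fills much of the upper rows and H3K27me3 the rows of Calcr and Asb4 near the bottom, and the Zrsr1 row has H3K36me3 at 20% oxygen alone.

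The gene of the stimulatory G protein subunit, Gnas, was among the most marked. H3K4me3 covered 26.0% and 27.2% of its window at 20% oxygen and 25.4% and 27.3% at 4%. Its 3 large H3K4me3 peaks (chr2:174282293-174288905, chr2:174290321-174297537 and chr2:174325634-174334866) were each called in all 4 libraries, and all but the middle one contain annotated Gnas starts. H3K36me3 covered 76.3% and 69.5% at 20% oxygen and 87.4% and 74.3% at 4%, so the 2 oxygen levels overlapped for both marks.

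Mest, a paternally expressed gene of the hydrolase family, had H3K4me3 at the pair of starts near chr6:30738050 in all 4 libraries and at its upstream start, 30733506, in none. Its window was covered by H3K4me3 to 20.0% and 21.2% at 20% oxygen and to 19.6% and 20.7% at 4%. H3K36me3 began beside these starts and covered 59.3%, 63.3%, 67.3% and 64.6% of the record in 20% replicates 1 and 2 and 4% replicates 1 and 2, the order used for all lists of 4 values below. Read density in this island differed little between oxygen levels (log2 ratio of 4% to 20% −0.0017, SE 0.11, adjusted p = 0.998 by edgeR's quasi-likelihood test).

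Several members sit inside other genes, and the called regions belonged to the pair. Nap1l5, a nucleosome assembly protein gene within Herc3, had its own H3K4me3 over 91.0%, 81.8%, 98.0% and 85.2% of its record. The H3K36me3 island over it (chr6:58832601-58922199) spanned Herc3 as well. Neuronatin, Nnat, within Blcap, had no H3K4me3 at its start in any library, while the peak in its window (chr2:157563488-157567943) contained the Blcap start. H3K36me3 covered the whole Nnat record in all 4 libraries. Within Trappc9, a vesicle trafficking gene, the largest H3K4me3 peak (chr15:72803893-72811609; 7487, 7043, 6706 and 7062 bp covered) lay over the imprinted lncRNA Peg13.

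At the Peg3 cluster, a single H3K4me3 peak (chr7:6727636-6734320) contained the starts of both Peg3, a zinc finger gene, and Usp29, a ubiquitin peptidase gene. It covered 5308, 5019, 5112 and 5608 bp. The marks then split by side: H3K36me3 covered 78.7%, 74.5%, 68.5% and 68.1% of the Peg3 record, and 0%, 0%, 0% and 1.4% of the Usp29 record. Zim1, the oppositely imprinted zinc finger gene next to Peg3, had only a small H3K4me3 peak at its start, of 912, 225, 0 and 206 bp. Its record had no H3K36me3 in any library.

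The Snrpn record spans 4 annotated starts, and H3K4me3 lay at 1 of them. That start, 60005199 on chromosome 7, is shared with Snurf and lies in the imprinting control region of this cluster, the Prader-Willi and Angelman domain. The peak there (chr7:60003035-60005561) covered 2277, 1878, 2068 and 2082 bp. H3K36me3 downstream of it (chr7:59978201-59995799) held 584 reads in 20% replicate 1 and 261 in 4% replicate 1 and was not called in replicate 2 of either oxygen level. Ube3a, the ubiquitin ligase gene at the end of the domain, had H3K4me3 at its start in all 4 libraries and H3K36me3 over 91.2%, 89.9%, 91.9% and 90.2% of its record.

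Igf2r and Airn gave a clear contrast of 2 starts within one record. No H3K4me3 was called within 1000 bp of the Igf2r start in any library. The single H3K4me3 peak in the window, called in all 4 libraries (chr17:12740077-12744107; 3910, 3014, 3067 and 3380 bp) contained the Airn start. An H3K36me3 region (chr17:12742801-12790199) began just past the Airn start, ran across the Igf2r start and on beyond it. It held 2405, 1711, 1951 and 2190 reads. The H3K36me3 over the Igf2r record therefore covered only its 5′ part, 26.0%, 30.4%, 28.5% and 30.8%, and the rest of that record had none. Density in the region did not separate the oxygen levels in the test (log2 ratio 0.16, SE 0.13, adjusted p = 0.731, edgeR).

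**Figure D2:**
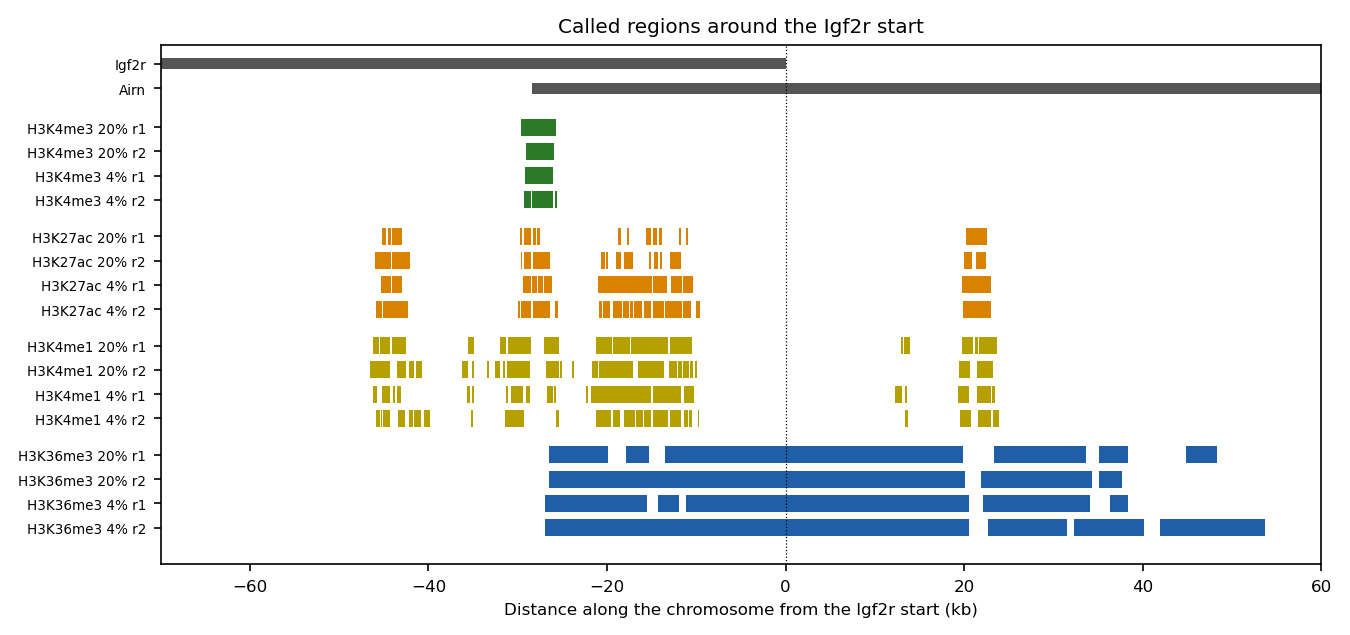
Called regions of H3K4me3, H3K27ac, H3K4me1 and H3K36me3 (bars, 1 row per library) by distance from the Igf2r start in kb along the chromosome, with the Igf2r and Airn records in gray above. The H3K4me3 peak sits on the Airn start inside Igf2r, H3K36me3 crosses the Igf2r start, and the H3K27ac blocks between the 2 starts are wider at 4% oxygen.

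At the Kcnq1ot1 cluster, the antisense RNA gene Kcnq1ot1 had an H3K4me3 peak over its start (chr7:143292345-143297021) of 4677, 3175, 3666 and 3645 bp. Its H3K36me3 followed the replicates: 22% and 3.09% of the window at 20% oxygen and 27.3% and 1.16% at 4%. Cdkn1c, the CDK inhibitor gene that Kcnq1ot1 silences in cis, had no H3K4me3, H3K27ac or H3K36me3 called on its record in any library. Outside the record, its window held H3K4me3 (817, 753, 1478 and 784 bp) and H3K27ac (2495, 2384, 2043 and 2041 bp). Part of this window is shared with Slc22a18. Phlda2, a growth-restraining gene of the placenta in the same cluster, had H3K4me3 over 100% of its short record in all 4 libraries, with no H3K36me3 on it.

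At the Dlk1-Dio3 cluster, the lncRNA gene Meg3 had H3K4me3 at its second annotated start, 109545398 on chromosome 12, in all 4 libraries and at the first, 109540996, in none. Its H3K27ac split by replicate, at 6.43% and 20.8% of the window at 20% oxygen and 7.98% and 20.7% at 4%. Rtl1, a retrotransposon-derived gene antisense to this RNA chain, had H3K27ac at an end of its record in all 4 libraries and H3K36me3 over 12.7%, 13.2%, 36.5% and 13.7% of it. Dlk1, which encodes a membrane protein of the Notch ligand family, had its steady H3K4me3 peak upstream (chr12:109449209-109451458; 2011, 1678, 1579 and 2055 bp), with no annotated start inside. A peak on the Dlk1 record itself was called in replicate 1 at both oxygen levels and in neither replicate 2.

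H19, the lncRNA gene that shares enhancers with Igf2, had no H3K4me3 on its record. On and beside it lay H3K4me1 (chr7:142570821-142577687; 6221, 6701, 4578 and 4884 bp) and H3K27ac (chr7:142571870-142575378; 3377, 3041, 591 and 3074 bp). Igf2, which encodes a fetal growth factor, had no H3K4me3, H3K27ac or H3K36me3 in its window in any library. Its H3K27me3 was uneven, at 30.1%, 16.8%, 46.7% and 8.92% of the window. Plagl1, a zinc finger gene, had the least of any mark: no H3K36me3 or H3K27me3 in any library and at most 0.79% of its window under each other mark.

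Polycomb without an active start was a minority state. H3K27me3 without H3K4me3 at a start was present in all 4 libraries at Asb4, Calcr and Grb10, 3 of 40 members (7.5%), against 13.9% of all genes. Asb4, an ankyrin repeat gene, was covered to 88.2%, 97.7%, 89.4% and 91.4% of its window. Calcr, the calcitonin receptor gene, was covered to 81.4%, 87.3%, 87.1% and 90.5%. Neither had H3K27ac or H3K36me3 in its window in any library. Asb4 had an H3K4me3 peak inside its record, away from its annotated starts, in all libraries but 4% replicate 1. The bases under both H3K4me3 and H3K27me3 there numbered 801, 834, 0 and 569.

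Asb4 and Calcr flank Peg10, a retrotransposon-derived gene, and Sgce, the epsilon-sarcoglycan gene, which carried the opposite marks on the same chromosome. Peg10 and Sgce shared an H3K4me3 peak at their starts, covering 15.4%, 12.4%, 13.8% and 13.7% of the Peg10 window. H3K36me3 covered 96.4%, 76.9%, 88.5% and 91.5% of the Sgce record and 81.1%, 53.0%, 84.1% and 47.8% of the Peg10 record. Neither window had any H3K27me3. Below Peg10 the nearest H3K27me3 island was 243.5, 268.5, 249.9 and 261.5 kb away, and above it 504.9, 510.1, 428.9 and 430.3 kb. Density in the islands over Asb4 (log2 ratio −0.01, SE 0.12, adjusted p = 0.987) and most of Calcr (log2 ratio −0.03, SE 0.13, adjusted p = 0.962) showed no difference that edgeR could separate from the spread.

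Dio3, the deiodinase gene that inactivates thyroid hormone, and Ascl2, a bHLH factor gene, had H3K27me3 in the window with no active mark. At Dio3 the islands lay on both sides (chr12:110246801-110275199 and chr12:110283001-110302799) and left the record and its start uncovered in all 4 libraries. At Ascl2 H3K27me3 covered 46.2%, 43.6%, 44.6% and 45.4% of the window, mostly beside the record, and 15.5%, 0%, 15.5% and 7.29% of the record itself. Rasgrf1, a Ras exchange factor gene, had 8.73%, 32.1%, 10.9% and 15.4%, highest in 20% replicate 2. Kcnk9, a potassium channel gene, had H3K27me3 in both replicate 2 libraries (17.4% at 20% and 18.3% at 4%) and in neither replicate 1 library. Peg12 was at 9.40%, 29.7%, 0% and 13.8%.

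Active and Polycomb marks were also counted on the same gene. H3K4me3 and H3K27me3 were both present by the rules above in at least 1 library at 3 members, Slc22a18, Mkrn3 and Trappc9, and in all 4 at none. Over all genes 5.11% had both in at least 1 library and 1.64% in all 4, so 3 of 40 lies near the background. The 2 marks occurred anywhere in the same window in all 4 libraries at Magel2, Mkrn3 and Grb10, against 9.38% of all genes, and in at least 1 library at 12 of 40 members, against 18.8%. The DNA covered by both in the same library reached at most 1305 bp at any member, and overlap occurred in some library at 7 of 40 members, against 9.39% of all genes: Phlda2, Slc22a18, Ndn, Mkrn3, Grb10, Asb4 and Trappc9. No member had H3K27ac or H3K36me3 on the same bases as H3K27me3 in any library. Over all genes this was seen at 2.41% for H3K27ac and 0.529% for H3K36me3, so 0 of 40 lies near the background.

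Mkrn3, a makorin ring finger gene of the Snrpn domain, had the marks side by side. H3K4me3 covered 100%, 93.6%, 87.4% and 90.4% of its record. H3K27me3 lay upstream of its start, outside the record (chr7:62420601-62436399), and covered 37.9%, 40.6%, 40.6% and 42.3% of the window. The bases under both numbered 5, 0, 0 and 186. Its neighbors followed less evenly: Magel2, a MAGE family gene, had H3K4me3 on 14.4%, 5.41%, 10.4% and 4.52% of its window and H3K27me3 on 9.01%, 39.0%, 25.9% and 27.7%. Ndn, the necdin gene, had H3K27me3 in 2 libraries only, 20% replicate 2 (14.8%) and 4% replicate 1 (31.4%). A small H3K4me3 peak past its end (chr7:62350599-62351606) was called in all 4 libraries.

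Grb10, an adaptor gene of insulin receptor signaling, was divided along its length. An H3K27me3 region (chr11:11974801-12022199; 39398, 39599, 41199 and 36598 bp) lay toward the 5′ end. It ended inside the record, short of the annotated starts at 12027971 and 12037420. The whole window, which also takes in DNA upstream of the record, had H3K27me3 on 37.2%, 38.0%, 39.4% and 35.8%. Its starts carried no H3K4me3 despite the 40 CpGs printed above. An H3K4me3 peak in the body (chr11:11973706-11975174; 1469, 1113, 1166 and 1300 bp) sat at the inner edge of the Polycomb region. The 3′ part held H3K27ac (chr11:11962318-11967316; 4999, 4208, 3520 and 4236 bp) and H3K4me1 on 17.0%, 13.6%, 13.3% and 14.3% of the window. H3K27ac over the whole window was 17.6% in 20% replicate 1 and 6.41%, 6.35% and 6.90% in the other 3 libraries, so that 1 library set that difference.

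Slc22a18, a transporter gene, had a start under H3K4me3 in all 4 libraries (601, 661, 823 and 899 bp). H3K27me3 covered 35.1%, 32%, 87.2% and 0% of its record, so the 2 libraries at 4% oxygen held both the highest and the lowest value. Phlda2 next to it, which shares part of the window, followed with 7.66%, 16.9%, 46.5% and 0%.

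The design also asks how the marks compare between 4% and 20% oxygen. Without a replicate block, no imprinted gene passed limma at an adjusted p of 0.05 for any mark, and 0 of 12217 to 19949 genes tested per mark did. At an unadjusted p under 0.05 limma had 299 of 19949 genes for H3K4me3, 858 of 18039 for H3K27ac and 4217 of 17206 for H3K4me1. For H3K36me3 it had 1210 of 17225 and for H3K27me3 702 of 12217. In the same order, the imprinted genes among them were 0 of 29 tested, 3 of 27, 5 of 25, 1 of 24 and 0 of 15. These shares were not compared by a test. With 2 libraries against 2 the smallest exact permutation p is 0.33. Genes were therefore also counted when both 4% libraries lay above, or both below, both 20% libraries by at least 5 percentage points.

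For H3K36me3, 24 members had a mean coverage of at least 1% and entered the test, 2 lay at least 5 points lower at 4% oxygen (Zrsr1 and Commd1) and none higher. Over all 17225 genes tested 7.06% were lower and 1.52% higher by this rule, so 2 of 24 is near the background. Zrsr1, a splicing factor gene derived by retrotransposition and expressed from the paternal copy, had H3K36me3 on 60.4% and 66.1% of its window at 20% oxygen and 0% at 4% in both libraries. The single island (chr11:22965401-22981599) held 873 reads in 20% replicate 1 and 516 in 20% replicate 2. Over all their islands the 4 lists held 25048785, 13350093, 15581212 and 15349603 reads, and the part of read number in this difference was not tested. The difference was −63.3 points (95% interval −72.7 to −53.8, limma, adjusted p = 0.282), and it was the same sign within both replicates (−60.4 and −66.1).

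Zrsr1 lies wholly inside Commd1, a gene of copper handling, and the island belongs to both records. H3K36me3 on the Commd1 record was 17.4% and 44.8% at 20% oxygen and 1.03% and 0% at 4%. Much of the 20% replicate 2 value came from a second island (chr11:22936801-22958599) called in that library alone. The Commd1 start kept its H3K4me3 (chr11:22979990-22984075; 3753, 3518, 3252 and 3991 bp) and its H3K27ac (1903, 2227, 2239 and 2731 bp) in all 4 libraries. The H3K36me3 over Cct4, the chaperonin gene on the other side of that start, covered 95.2%, 96.8%, 100% and 98.4% of its record. How many reads the 4% libraries had under the Zrsr1 island is not in the lists.

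**Figure D3:**
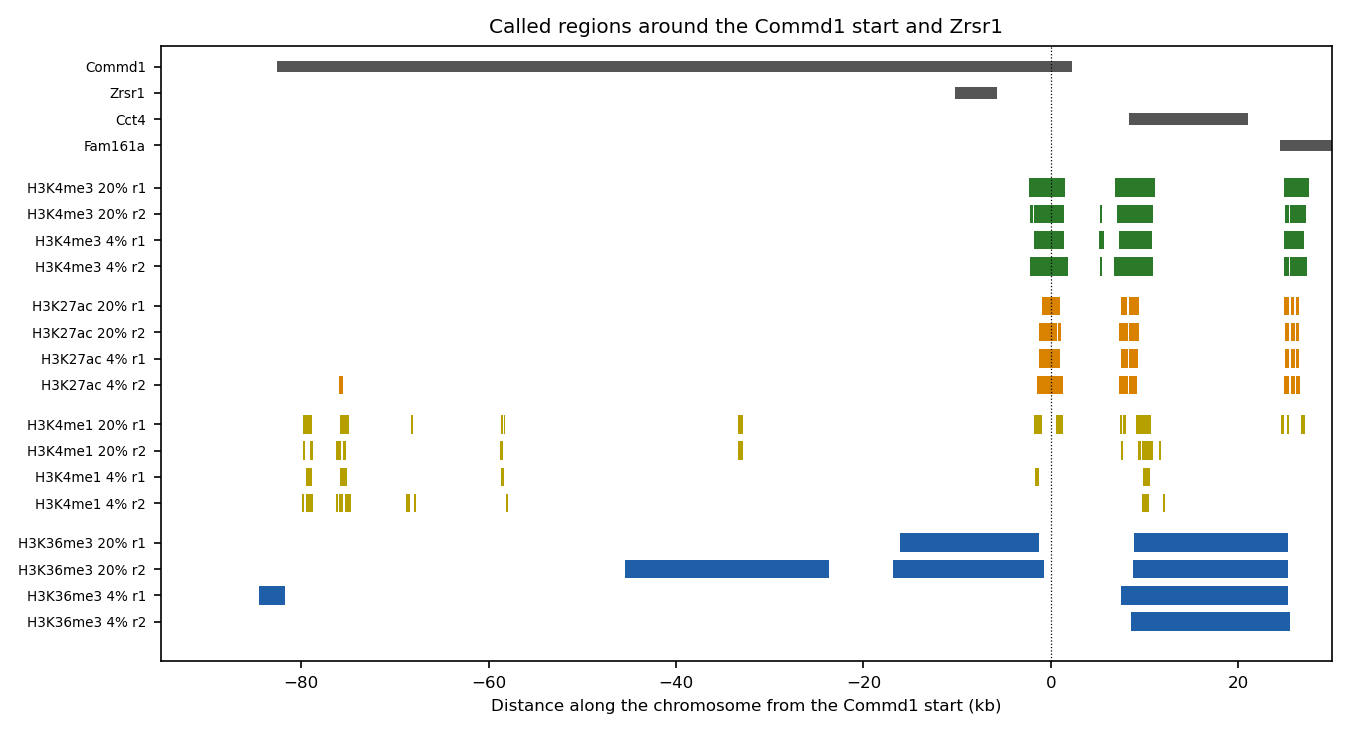
Called regions of H3K4me3, H3K27ac, H3K4me1 and H3K36me3 (bars, 1 row per library) by distance from the Commd1 start in kb along the chromosome, with gene records in gray above. The H3K36me3 island over Zrsr1 is present in both 20% libraries and absent from both 4% lists, while H3K36me3 over Cct4 and H3K4me3 at the Commd1 start are in all 4.

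Trappc9, also long, had H3K36me3 on 32.5% and 20.2% of its window at 20% oxygen and 15.3% and 13.6% at 4%. The levels did not overlap, with a gap under the 5 points used above. A pair of its islands came from a subset of libraries: chr15:72898001-72953799 was called in 20% replicate 1 only, and the Peg13 island chr15:72776801-72810599 in all but 4% replicate 1.

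H3K4me1 lay lower in both 4% libraries than in both 20% libraries at most genes. By any amount this held for 15 of 25 members tested, against 67.8% of all 17206 genes tested, and by at least 5 points for 3 members (H19, Cdkn1c and Dlk1), against 14% of all genes; none was higher by 5 points, against 0.0116%. The median difference was −3.54 points over members and −3.83 over all genes, close to each other. The H3K4me1 lists as a whole covered less of the genome at 4% oxygen (61.0 Mb in replicate 1, 63.8 Mb in replicate 2) than at 20% (105.9 Mb, 81.8 Mb), and the part of this in the members' values was not tested. For this mark both replicate 1 libraries shared a flow cell, as did both replicate 2 libraries, so limma was also run with the replicate number as a block. It then called 2905 genes (16.9% of those tested), among them 3 of the 25 members, Dlk1, Cdkn1c and Mest, all lower at 4%.

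Dlk1 had H3K4me1 on 24.2% and 26.7% of its window at 20% oxygen and 6.98% and 12% at 4%. The difference was −16.0 points (95% interval −25.1 to −6.92, limma, adjusted p = 0.194; with the block, adjusted p = 0.00347). On the gene record alone it was 9.57% and 28.1% against 6.63% and 5.13%, a gap under 5 points. An upstream domain (chr12:109437177-109445150) reaches into the window, with most of it outside. Over its whole length it had 7538 and 6760 bp covered at 20% oxygen and 868 and 1995 bp at 4%. H3K27ac over the same stretch (chr12:109435676-109444483) was also lower, at 8228 and 8461 bp against 2495 and 6417 bp, and the groups did not overlap. Dlk1's own upstream H3K4me3 peak, given above, overlapped between oxygen levels.

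H19 had H3K4me1 on 34.9% and 38.3% of its window at 20% oxygen and 22.3% and 24.8% at 4%, a difference of −13.0 points (limma, adjusted p = 0.194; with the block, adjusted p = 0.0599). Its H3K27ac, at 16.9% and 18.9% against 2.61% and 16.8%, did not overlap either, though 4% replicate 2 lay just under the 20% libraries. Cdkn1c had H3K4me1 on 11.3% and 8.57% at 20% oxygen and 2.20% and 0% at 4%, a difference of −8.86 points (limma, adjusted p = 0.194; with the block, adjusted p = 0.0125). All of it lay outside the record, which had no H3K4me1 in any library, and with equal numbers of peaks per library the gap fell under 5 points. Mest had H3K4me1 on 12.2% and 7.06% against 3.93% and 0%, a gap under 5 points (limma with the block, adjusted p = 0.0347).

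For H3K27ac, none of 27 members tested passed the 5-point rule in either direction, against 0.82% of all genes higher and 0.238% lower. Igf2r came nearest among those that were higher, at 6% and 10.4% at 20% oxygen and 14.2% and 15.5% at 4%. The difference was 6.65 points (95% interval 0.865 to 12.4, limma, adjusted p = 0.9999), and with MACS2 scores of at least 5 alone it passed the 5-point rule. Most of it lay between the Airn and Igf2r starts, at chr17:12748739-12754719, with 1250 and 2510 bp covered at 20% oxygen and 5981 and 4914 bp at 4%, and at chr17:12754816-12758147, with 1161 and 1897 bp against 2921 and 3214 bp. H3K4me1 over this stretch (chr17:12747927-12759396) was 10250, 9509, 10958 and 9022 bp, with the groups overlapping. Nap1l5 was also higher, at 3.73% and 2.96% against 6.19% and 6.89%. Kcnq1ot1 was lower, at 8.13% and 7.89% against 5.50% and 4.33%.

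**Figure D4:**
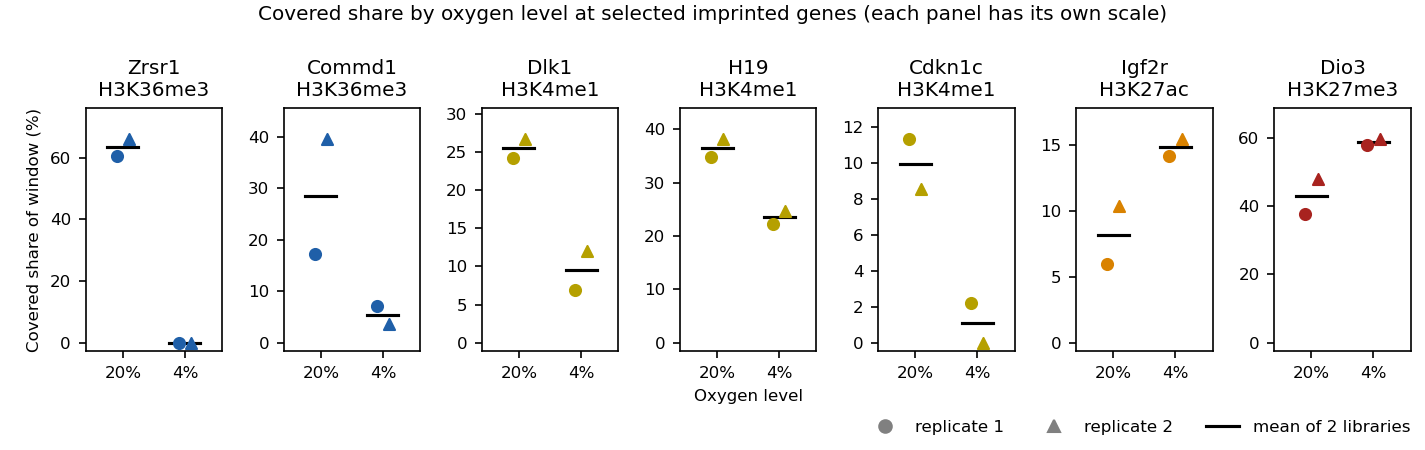
Covered share of the window in percent (vertical axis, a scale for each panel) at 20% and 4% oxygen for 7 pairs of gene and mark, with circles for replicate 1, triangles for replicate 2 and bars for the mean of 2 libraries. In each panel the 2 oxygen levels do not overlap, and no pair passed limma after adjustment without a replicate block.

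For H3K27me3, 15 members were tested, and 1, Dio3, was at least 5 points higher at 4% oxygen and none lower, against 8.6% and 2.9% of 12217 genes. Dio3 was covered to 37.8% and 47.9% at 20% oxygen and 57.9% and 59.8% at 4%. The difference was 16.0 points (95% interval −9.00 to 41.0, limma, adjusted p = 0.852), and with equal numbers of islands per library it was 8.46 points and the levels no longer separated by 5. The median difference was 2.65 points over the members tested and 2.12 over all genes. Ascl2, Grb10, Mkrn3 and Asb4 had overlapping levels.

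For H3K4me3, none of 29 members tested passed the 5-point rule, against 0.01% of all genes higher and 0.0201% lower, and the median difference was −0.16 points over members and −0.24 over all genes.

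Read density inside islands, the reads of an island divided by its covered length, gave no call without a replicate block either. Of the H3K36me3 regions over members, 21 were called in all 4 libraries and tested, with a median log2 ratio of 4% to 20% of 0.09 against 0.01 over 10895 regions. None passed an adjusted p of 0.05 in edgeR (969 regions had an unadjusted p under 0.05, 3 of them over members). The lowest adjusted p over members was 0.473, at Inpp5f, an inositol phosphatase gene. Its region (chr7:128612201-128671799) had 2.38 and 2.42 reads per kb per 1000000 island reads at 20% oxygen and 3.16 and 3.12 at 4% (log2 ratio 0.34, SE 0.11), without overlap. Rtl1 (chr12:109597201-109632799), at 1.85 and 2.16 against 2.42 and 2.73, had a log2 ratio of 0.31 (SE 0.13, adjusted p = 0.524). This region covers 18.3% of the Rtl1 record and also lies over the lncRNA gene Rian, so the value is not that of Rtl1 alone. Nnat (chr2:157546401-157569999), at 5.18 and 4.85 against 6.55 and 5.88, had 0.26 (SE 0.11, adjusted p = 0.544). That region also spans the whole Blcap record. For H3K27me3, 6 regions over members were tested, 3 with a higher and 3 with a lower value at 4%, and none of them or of 10277 regions passed (964 unadjusted). With the replicate block, edgeR called 4 of the 21 H3K36me3 regions over members, against 1165 of 10895. Their adjusted p was 0.0011 (Inpp5f), 0.012 (Rtl1), 0.027 (Nnat) and 0.027 (Zdbf2). For H3K27me3 it called 1 of 6, Ascl2 (adjusted p = 0.0091), against 1147 of 10277. For these marks the replicate 1 libraries came from different flow cells, so replicate numbers are not shown to pair the samples.

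Neighboring genes of the imprinted clusters and the factors that keep imprints were counted in the same way. Of 41 imprinted neighbors matched, Airn, Th and Peg13 among them, 25 had H3K4me3 and 8 had H3K27me3 in all 4 libraries, and 1 had both. Over all genes the shares were 41.4%, 16.2% and 1.64%. None passed limma. At 4% oxygen, by the 5-point rule, Th was higher for H3K4me3 (32.1% and 25.6% against 38.3% and 40.5%) and lower for H3K4me1. Cd81 was higher for H3K36me3, and Ago2 (89.2% and 88.8% against 76.6% and 76.8%), Osbpl5 and Ppp1r9a were lower. Peg13 was lower for H3K4me1 and Ins2 higher for H3K27me3. With the share over all genes in brackets, 1 of 30 neighbors tested was higher for H3K4me3 (0.01%). For H3K4me1, 2 of 26 were lower (14%), and for H3K27me3, 1 of 13 was higher (8.6%). For H3K36me3, 1 of 29 was higher (1.52%) and 3 of 29 were lower (7.06%). Of 22 imprint maintenance factors, 19 had H3K4me3 and 18 had H3K36me3 in all 4 libraries, against 41.4% and 27.6% of all genes. Dnmt3l, Dppa3 and Ctcfl, which act in germ cells or early embryos, had no H3K4me3 at a start in any library. Over whole windows, 1 of the 22 factors had no H3K4me3 peak in any library. None of the 22 factors passed limma without a replicate block. By the 5-point rule Dnmt3b (40.8% and 59.3% against 28.5% and 13.7%) and Kdm1b were lower for H3K36me3, and Trim28 and Uhrf1 for H3K4me1. These are 2 of 20 factors tested for H3K36me3 and 2 of 14 for H3K4me1. Over all genes 7.06% and 14% were lower, so both counts lie near the background.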

How the data were processed

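ChIP-seq of 5 marks in 20 libraries was used, with groups and replicates from the sample titles. Per the submitters' processing notes, the tools were BWA, Picard, MACS2 and SICER and the build mm10, with versions not given in the sources used here; per the file headers, each library was called on its own. For H3K4me3, H3K27ac and H3K4me1 the authors deposited MACS2 peaks, with a score read here as −log10 q. For H3K36me3 and H3K27me3 they deposited SICER islands, with a whole number per island read here as a read count. For the MACS2 marks, intervals of replicate 2 were deposited under replicate 1 and matched by peak name and score in 100% of entries.

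Gene records and starts came from RefSeq GRCm38.p6, the assembly also named mm10. Covered bp were divided by window length, and genes with a mean of at least 1% were tested with limma 3.58.1. Island counts were merged into regions, and those called in all 4 libraries were tested with edgeR 4.0.16 (quasi-likelihood, covered length as offset, Benjamini-Hochberg adjustment over all regions). Reads per kb per 1000000 island reads use covered length. H3K4me3, H3K27ac and H3K27me3 presence used 200 bp and 1000 bp, and genes with no start entry took either end of the record. The programs were checked on simulated data. Per the file headers, same-numbered H3K4me1 libraries shared a flow cell in both replicates (correlation of their deviations 0.489), so its limma test is also given with a replicate block. Island reads numbered 8479517 to 25048785 per library, and the depth of the other lists is unknown.

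Members, lists and rules were chosen with earlier results of these data known. Named were genes passing a test, up to 3 per mark and direction by the 5-point rule, and the main imprinted clusters; the Igf2r, Nap1l5, Kcnq1ot1 and Trappc9 differences were singled out after their values were seen. The alternatives were a replicate block, the gene record alone, log2 of covered bp plus 500 bp, no filter, equal peak numbers, a score of at least 5, other lengths, DESeq2 1.42.0, no length offset, and leaving out each library. A cell marker is not reported here.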

Additional observations from a re-analysis of the deposited data

How the results depend on the processing

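Limits first: each group has 2 libraries, peak lists hold no signal outside called regions, no list separates the parental copies, and 7 pairs of members share part of their windows.

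Replicate numbers name no shared batch in the labels, and same-numbered libraries shared a flow cell in both replicates for H3K4me1 alone. Deviations of same-numbered libraries correlated from 0.17 (H3K36me3) to 0.618 (H3K27ac) over windows. Over the read densities of regions the correlation was 0.499 for H3K36me3 and 0.435 for H3K27me3. With a replicate block, limma called 80 of 19949 genes for H3K4me3 and 2905 of 17206 for H3K4me1. The H3K4me1 calls held 3 of 25 imprinted genes tested (Cdkn1c, Dlk1 and Mest, all lower), and the H3K4me3 calls none. EdgeR then called 1165 of 10895 H3K36me3 and 1147 of 10277 H3K27me3 regions. Of the tested regions over imprinted genes, these were 4 of 21 (Inpp5f, Nnat, Rtl1 and Zdbf2) and 1 of 6 (Ascl2). The block changed no other call, and the H3K4me1 genes and these regions over imprinted genes are given with it in the results.
Using the gene record alone, limma called 19 genes for H3K27me3, none of them imprinted. DESeq2 called 2 H3K36me3 regions.
Leaving out 1 library, limma counts ran from 0 to 36 for H3K27ac (without 20% replicate 1), from 0 to 1614 for H3K4me1 (without 20% replicate 2, with 0 to 2 imprinted genes, Mkrn3 and Slc22a18) and from 0 to 861 for H3K27me3 (without 4% replicate 2). EdgeR counts ran from 0 to 52 for H3K36me3 (without 20% replicate 2) and from 0 to 130 for H3K27me3 (without 4% replicate 2), none over imprinted genes. A lone library was assumed to vary like the other group.
For the counts of genes separating by oxygen, the gene record alone gave 49 higher and 161 lower for H3K4me3, 426 and 185 for H3K27ac, 16 higher for H3K4me1, 455 higher for H3K36me3 with 4 imprinted genes lower (Peg3 and Trappc9 added), and 618 higher for H3K27me3 with 0 imprinted genes. A rule of 2 points gave 33 higher and 126 lower for H3K4me3, 904 and 193 for H3K27ac (imprinted: 2 and 1), 6 and 6349 for H3K4me1 (9 imprinted genes lower), 723 and 2140 for H3K36me3, and 1675 and 549 for H3K27me3. For H3K4me1 the 3 imprinted genes lower on the record alone were H19, Mkrn3 and Gnas, so Dlk1 and Cdkn1c no longer separated by 5 points, and with equal peak numbers Cdkn1c no longer did. Scores of at least 5 gave 1 lower for H3K4me3, 1 higher for H3K4me1, and 1 imprinted gene, Igf2r, higher for H3K27ac. Equal peak numbers gave 197 genes lower and 0 imprinted genes higher for H3K27me3. The named differences of Zrsr1, Commd1, Dlk1 and H19 kept their direction under every alternative run, and those of Cdkn1c and Dio3 under all but the gene record alone, where both were at 0 in all 4 libraries and gave no value. The cause of the changed counts was not tested, beyond the smaller windows, lower rule and fewer samples themselves. The remaining 187 counts stayed within 1.5 times their main value.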
